A study of Homo sapiens with 6 samples.

Results

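A set of 9 genes whose products carry arsenic into cells, reduce it, methylate it or conjugate it with glutathione was followed in human prostate epithelial cells transformed by arsenite. They were chosen by name, and a gene was used where the array annotation gave at least 1 feature with its symbol alone. This left 8 of them, out of 18417 genes measured in all. The methyltransferase gene AS3MT was the exception, since its 1 feature also carries the symbol of a read-through transcript, and it has no value here. Each of the other 8 had 1 feature of its own.

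CAsE-PE is the malignant line that arose from RWPE-1 during continuous growth in 5 µM sodium arsenite, and it was measured after 30, 33.5 and 35 weeks of exposure, 1 array each. RWPE-1 is an established line from normal adult prostate epithelium, immortalised with a papillomavirus, and it was measured without arsenite at passages 18, 38 and 42, 1 array each. Both lines grew in the same serum-free keratinocyte medium with pituitary extract and epidermal growth factor. The exposed cells are 1 transformed line followed over time, and neither their passage nor whether arsenite was present at harvest is given in the sources used. Nothing states that exposure times or passages were separate cultures. The p-values rest on the spread among arrays of different passages or exposure times. That spread mixes change over time with technical variation and may not be that of independent cultures. Without a passage-matched control, time in culture and arsenite cannot be told apart.

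Arsenite crosses membranes as an uncharged, glycerol-like molecule, and the aquaglyceroporins, water channels that also pass glycerol, are known to let it in together with the glucose carrier GLUT1. Inside the cell, pentavalent arsenic is reduced at the expense of thiols, AS3MT adds methyl groups from S-adenosylmethionine, and glutathione forms complexes with trivalent arsenic that ABC transporters export. Liver is known as the main site of arsenic methylation in the body.

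The deposited values are linear intensities, and levels are given below as log2(intensity + 1), a scale on which differences of dim genes are understated. Array medians lay between 91.7 and 97.2 intensity units, and the correlation of log2 values ran from 0.985 to 0.995 within groups and from 0.957 to 0.969 across them. All 7 of the measured epithelial and basal markers were outside the dimmest 33.3% of genes, as were 3 of 12 markers of fibroblasts, leukocytes, endothelium and hepatocytes. Of the 7, 1 rose in CAsE-PE, the E-cadherin gene CDH1 (0.39), and 1 fell, the basal keratin KRT14 (−1.60). The other 5 did not pass, with differences of −0.12 for KRT5, 0.16 for ITGB4, −0.21 for EPCAM, 0.09 for KRT8 and 0.04 for KRT18. Of the 12 markers of other cell types, 1 fell, the macrophage marker CD68 (−0.89), and 0 rose; the part of these markers in the results below was not tested. From the luminal list 1 marker, KLK3, was measured and lay in the dimmest 33.3%. No detection call accompanies the intensities used here, so a low level cannot be told from background, and the number of arrays limits precision.

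Of the 8 measured genes, 1 rose and 0 fell at an adjusted p under 0.05 (limma, adjusted over all genes). That is 12.5% of them, against 17.7% of all genes called in either direction, with 9.04% of all genes higher and 8.71% lower. An unadjusted p under 0.05 was reached by 3 of the 8, SLC2A1 upward and GSTO1 and GSTO2 downward, against 32.4% of all genes. The CAsE-PE and RWPE-1 arrays did not overlap for 3 of the 8, namely SLC2A1, GSTO1 and GSTP1, against 38.9% of all genes. These shares are near the background. The median log2 difference, CAsE-PE minus RWPE-1, was 0.06 for the 8 genes and −0.06 for all genes. In all, 3269 genes were called, 1665 higher and 1604 lower, a split of 1989 and 1340 after median centring and of 1520 and 1701 after quantile normalisation. There were 1888 called without the passage 38 array and 2094 without the 35-week array. With either of these arrays left out 0 of the 8 genes were called, whereas 1 of them was called without the passage 18 or the 33.5-week array, and 2 without the passage 42 or the 30-week array.

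**Figure D1:**
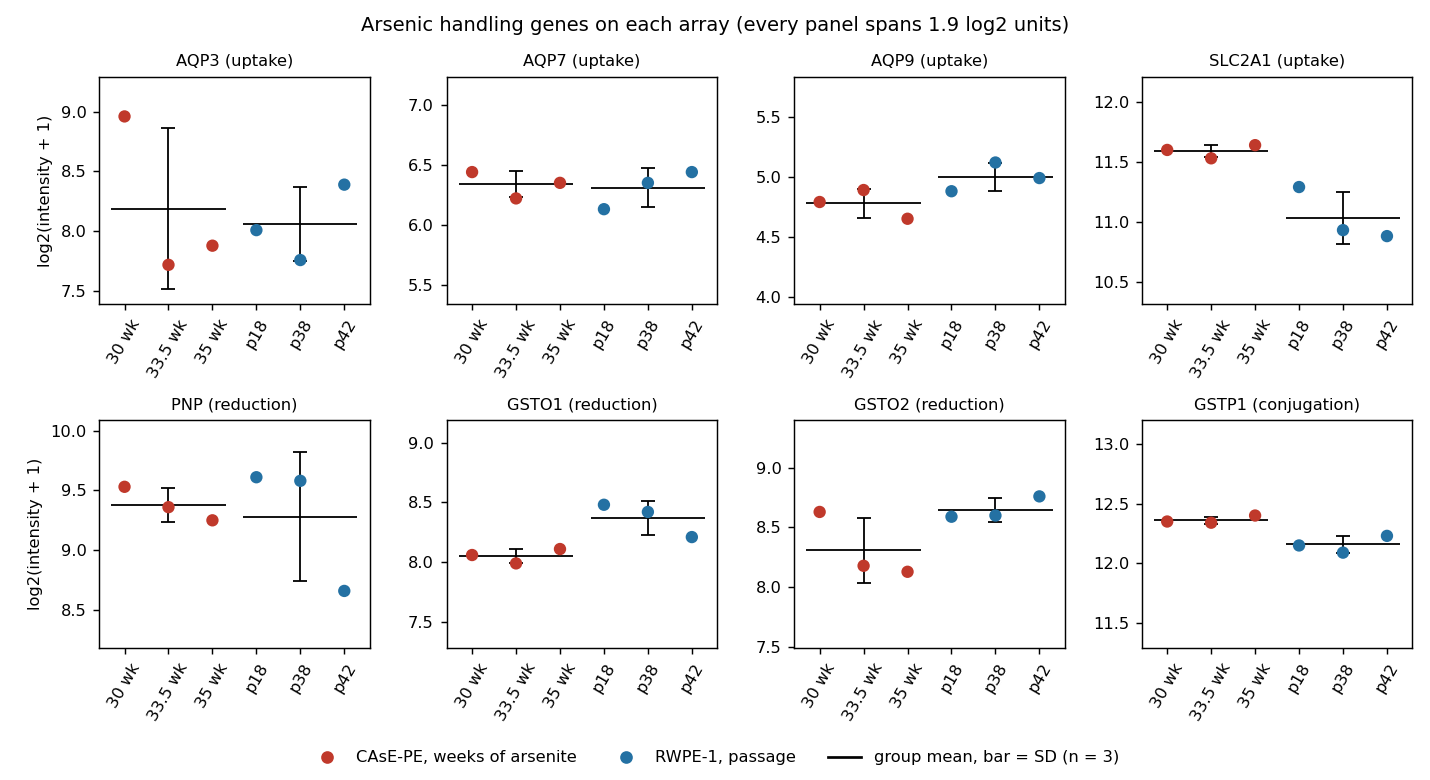
Level of each measured gene, as log2(intensity + 1), on the 3 CAsE-PE arrays (red, by weeks of arsenite) and the 3 RWPE-1 arrays (blue, by passage); lines are group means and bars the SD. SLC2A1 and GSTP1 have every CAsE-PE array above every RWPE-1 array, GSTO1 has them below, and the other 5 genes overlap.

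The promoters of the 3 genes whose groups did not overlap are shown with that of GSTO2, the chromosome 10 neighbour of GSTO1, because arsenite is a known inducer of the antioxidant response, which acts through a short promoter element. Sequences are the 250 bases before a RefSeq transcript start, build GRCh38.p14, 5′ to 3′ on the gene's strand. Capitals mark matches to the core of the antioxidant response element, TGACNNNGC, or to the core of the hypoxia response element, ACGTG, searched on both strands. All 9 genes had at least 1 window in the RefSeq table.
SLC2A1, chr1:42958869-42959118, minus strand: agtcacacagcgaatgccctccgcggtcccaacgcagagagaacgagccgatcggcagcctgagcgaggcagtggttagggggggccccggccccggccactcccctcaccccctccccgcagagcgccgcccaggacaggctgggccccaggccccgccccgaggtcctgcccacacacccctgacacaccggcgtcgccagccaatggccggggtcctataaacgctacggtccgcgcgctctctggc
GSTO1, chr10:104254642-104254891, plus strand: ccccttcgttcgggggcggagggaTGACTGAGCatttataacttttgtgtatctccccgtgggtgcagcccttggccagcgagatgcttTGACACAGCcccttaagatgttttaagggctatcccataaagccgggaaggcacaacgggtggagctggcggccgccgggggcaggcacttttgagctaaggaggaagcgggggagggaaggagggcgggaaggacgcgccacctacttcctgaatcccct
GSTO2, chr10:104268934-104269183, plus strand: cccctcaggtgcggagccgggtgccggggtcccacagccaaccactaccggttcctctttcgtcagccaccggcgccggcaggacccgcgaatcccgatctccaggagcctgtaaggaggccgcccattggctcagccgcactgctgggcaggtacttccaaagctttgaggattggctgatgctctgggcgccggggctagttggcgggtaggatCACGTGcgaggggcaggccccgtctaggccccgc
GSTP1, chr11:67583562-67583811, plus strand: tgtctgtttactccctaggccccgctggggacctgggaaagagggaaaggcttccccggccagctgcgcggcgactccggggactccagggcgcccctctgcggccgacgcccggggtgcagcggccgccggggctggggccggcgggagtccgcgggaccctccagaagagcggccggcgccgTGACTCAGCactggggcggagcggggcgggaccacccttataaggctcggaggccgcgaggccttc

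The antioxidant core was found in the windows of GSTP1, starting 66 bases before the start site, and of GSTO1, starting 226 and 161 bases before it. It stands in 10.9% of all 35116 RefSeq windows of this length. The hypoxia core was found in the first GSTO2 window only, as the palindrome CACGTG that matches on both strands, and it stands in 18.5% of all windows. No window of the other 6 genes held either core, and a GSTO2 window at a further start held neither. The GSTP1 window held 28 CG dinucleotides and the SLC2A1 window 24, against a median of 11 over all windows. The GSTO1 window lies downstream of an earlier start of a longer GSTO1 transcript. A match is a description of letters, not a bound site.

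Among the uptake genes, SLC2A1 rose in CAsE-PE and the aquaglyceroporins AQP3, AQP7 and AQP9 did not pass the threshold. SLC2A1 encodes GLUT1, the basal glucose carrier of most cells, which is known to pass arsenite and its methylated trivalent product. Its level was 11.60, 11.53 and 11.64 at 30, 33.5 and 35 weeks in CAsE-PE, against 11.29, 10.93 and 10.88 at passages 18, 38 and 42 in RWPE-1. The lowest exposed array lay above the highest untreated one, which was the earliest passage. The means were 11.59 ± 0.05 in CAsE-PE and 11.03 ± 0.22 in RWPE-1 (SD, n = 3 each), a log2 difference of 0.56 (SE 0.13, 95% interval 0.27 to 0.84) or 1.47-fold higher in CAsE-PE, with an adjusted p of 0.0149 in limma. The difference stayed between 0.48 and 0.68 under all 15 alternatives. With the passage 38 array left out the difference was 0.51 and no longer passed (adjusted p = 0.0712 in limma). With the 35-week array left out it was 0.53 and did not pass either (adjusted p = 0.0582 in limma). SLC2A1 is also known as a target of the hypoxia response and a supplier of glycolysis. The neighbouring genes of SLC2A1 on chromosome 1 had a median difference of −0.11. When the neighbours' median level was taken off each array, SLC2A1 differed by 0.65.

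The genes whose levels followed SLC2A1 most closely over the 6 arrays were RIOK1, an atypical kinase of ribosome maturation, with a Pearson correlation of 0.994, and PIK3C3, the class III lipid kinase of autophagy, with 0.993. These were the highest of 12277 genes outside the dimmest 33.3%. The 6 points share the 2-group structure, so the correlations are a description only. RIOK1 was at 8.41, 8.40 and 8.60 at 30, 33.5 and 35 weeks, against 8.01, 7.59 and 7.48 at passages 18, 38 and 42. As with SLC2A1, the earliest RWPE-1 passage lay closest to the exposed arrays, which follows from choosing RIOK1 by its correlation.

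AQP3, the aquaglyceroporin of many epithelia and a known route of arsenite entry, did not pass the threshold in either direction. Its level was 8.96, 7.72 and 7.88 at 30, 33.5 and 35 weeks in CAsE-PE, against 8.01, 7.76 and 8.39 at passages 18, 38 and 42 in RWPE-1. The 30-week array was the highest of the 6 and the 33.5-week array the lowest, so the exposed arrays enclosed all of the untreated ones. The difference was 0.13 (SE 0.30, 95% interval −0.54 to 0.80, adjusted p = 0.788 in limma), and the interval leaves room for a change of either sign. Without the 30-week array it was −0.26 and without the passage 38 array −0.02, neither of them called. The SD of AQP3 was 0.67 in CAsE-PE and 0.31 in RWPE-1.

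AQP7, a glycerol channel best known from fat tissue, was close to level across the arrays. It was at 6.44, 6.22 and 6.35 at 30, 33.5 and 35 weeks in CAsE-PE, against 6.13, 6.35 and 6.44 at passages 18, 38 and 42 in RWPE-1. Both groups covered nearly the same range, with a difference of 0.03 (SE 0.12, 95% interval −0.24 to 0.29, adjusted p = 0.892 in limma). Its mean of 6.34 in CAsE-PE and of 6.31 in RWPE-1 lay just above the upper limit of the dimmest 33.3%, 6.25. AQP7 has close copies in the genome, and 4 further features that carry its symbol with those of the copies were not used, so its value is uncertain.

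AQP9, the glycerol and arsenite channel of liver, was the only one of the 8 genes in the dimmest 33.3%. Its level was 4.79, 4.89 and 4.65 at 30, 33.5 and 35 weeks in CAsE-PE, against 4.88, 5.12 and 4.99 at passages 18, 38 and 42 in RWPE-1. The groups overlapped by the 33.5-week and passage 18 arrays, and the difference was −0.22 (SE 0.11, 95% interval −0.47 to 0.03, adjusted p = 0.211 in limma). At this level the feature cannot be told from background.

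The values were also set beside those of the nearest genes on the chromosome. AQP3 and AQP7 lie next to each other on chromosome 9, with 0 measured genes between them. The 24 nearest measured genes had a median difference of 0.25 around AQP3, 0.23 around AQP7 and 0.29 around AQP9 on chromosome 15. With the neighbours' median taken off each array, AQP3 differed by −0.04, AQP7 by −0.18 and AQP9 by −0.51. AQP9 then passed the threshold as lower (adjusted p = 0.0262 in limma), in a range of 0.0262 to 0.492 over its 14 alternatives. Its own level did not pass.

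Among the reduction genes, both omega-class glutathione transferase genes had negative differences and PNP varied most within RWPE-1, and none passed the threshold. GSTO1 encodes the enzyme known to reduce methylated pentavalent arsenic species with glutathione. Its level was 8.06, 7.99 and 8.11 at 30, 33.5 and 35 weeks in CAsE-PE, against 8.48, 8.42 and 8.21 at passages 18, 38 and 42 in RWPE-1. Every exposed array lay below every untreated one, with passage 42 nearest to them. The means were 8.05 ± 0.06 in CAsE-PE and 8.37 ± 0.14 in RWPE-1 (SD, n = 3 each), a difference of −0.32 (SE 0.11, 95% interval −0.56 to −0.08) or 1.25-fold lower in CAsE-PE. The unadjusted p was 0.0157 and the adjusted p 0.0729 in limma. GSTO1 passed as lower after quantile normalisation (−0.38, adjusted p = 0.0276), with array weights (−0.37, adjusted p = 0.011) and without the passage 42 array (−0.40, adjusted p = 0.0312), all in limma. In its other 12 alternatives it did not pass.

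GSTO2 encodes the second omega-class enzyme, known for reducing dehydroascorbate. Its level was 8.63, 8.18 and 8.13 at 30, 33.5 and 35 weeks in CAsE-PE, against 8.59, 8.60 and 8.76 at passages 18, 38 and 42 in RWPE-1. The 30-week array lay inside the untreated range, whereas the later 2 arrays differed from the RWPE-1 mean by −0.47 and −0.52. The difference was −0.34 (SE 0.14, 95% interval −0.66 to −0.01, adjusted p = 0.138 in limma). Without the 30-week array it was −0.50 and passed (adjusted p = 0.0166 in limma), and with array weights it passed as well (−0.38).

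GSTO1 and GSTO2 are adjacent on chromosome 10, again with 0 measured genes between them. The nearest genes around each had a median difference of −0.22. With the neighbours' median level taken off each array, GSTO1 differed by −0.16 (adjusted p = 0.343 in limma) and GSTO2 by −0.16 (adjusted p = 0.492 in limma). Relative to their neighbours both genes differed less than on their own.

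PNP, purine nucleoside phosphorylase, splits inosine and guanosine and can reduce arsenate in the test tube when thiols are present. Its level was 9.53, 9.36 and 9.25 at 30, 33.5 and 35 weeks in CAsE-PE, against 9.61, 9.58 and 8.66 at passages 18, 38 and 42 in RWPE-1. The passage 42 array was the lowest of the 6, and the exposed arrays lay between it and the other untreated ones. The difference was 0.10 (SE 0.23, 95% interval −0.43 to 0.62, adjusted p = 0.799 in limma). Without the passage 42 array it was −0.22 (adjusted p = 0.255 in limma).

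GSTP1, the pi-class glutathione transferase of conjugation, is known in prostate as a gene of basal cells whose promoter is methylated and silenced in most carcinomas. Its difference was positive and did not pass the threshold. Its level was 12.35, 12.34 and 12.40 at 30, 33.5 and 35 weeks in CAsE-PE, against 12.15, 12.09 and 12.23 at passages 18, 38 and 42 in RWPE-1. Every exposed array lay above every untreated one, by a margin comparable with the spread of the RWPE-1 arrays. The means were 12.36 ± 0.03 in CAsE-PE and 12.16 ± 0.07 in RWPE-1 (SD, n = 3 each), a difference of 0.21 (SE 0.09, 95% interval −0.01 to 0.42) or 1.15-fold higher in CAsE-PE. The adjusted p was 0.168 in limma, and among its 15 alternatives it passed with array weights only (0.25, adjusted p = 0.0418).

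**Figure D2:**
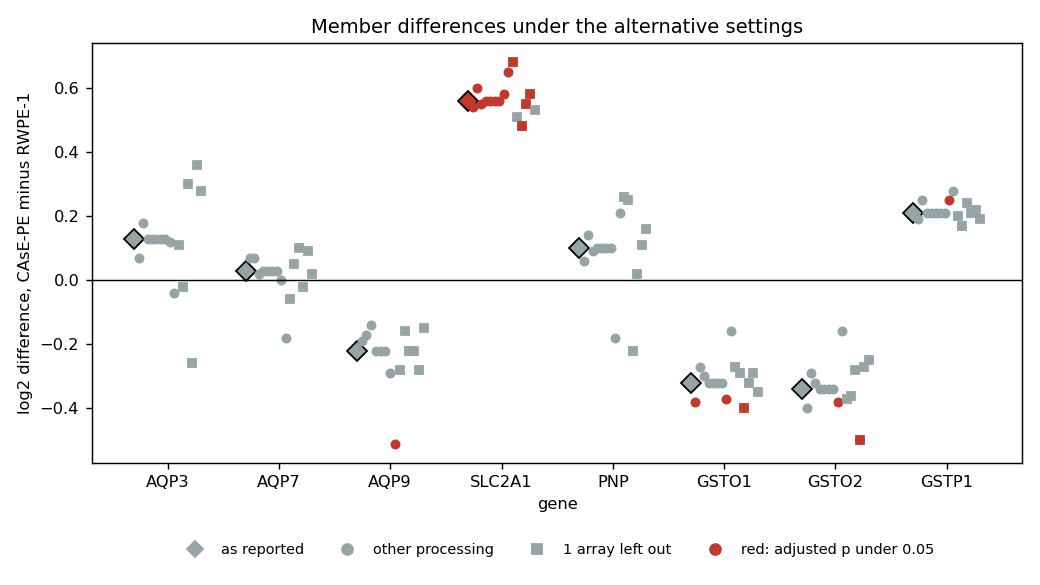
Log2 difference, CAsE-PE minus RWPE-1, of each measured gene as reported (diamonds), under other processing (circles) and with 1 array left out (squares); red marks an adjusted p under 0.05. SLC2A1 stays between 0.48 and 0.68, whereas AQP3, AQP7 and PNP cross 0.

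The other genes of arsenic handling, taken from a list by role, changed in both directions. Of 48 listed, 44 were measured, of which 14 rose, 4 fell and 26 did not pass, so that 40.9% were called, against 17.7% of all genes. The median difference was 0.06 for these 44 genes and −0.06 for all genes. Without the 35-week array 11 were called. The counts by role given below rest on few genes each, beside 9.04% of all genes higher and 8.71% lower. The list includes genes known from earlier results of these data to rise, so its count is not independent evidence of a direction.

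Further uptake genes held falls and no rises, 2 of 7. SLC20A1, a sodium-phosphate carrier of a family that can take up arsenate, fell (9.41, 9.43 and 9.42 at 30, 33.5 and 35 weeks, against 10.28, 10.51 and 10.09 at passages 18, 38 and 42). The difference was −0.87 (SE 0.12, adjusted p = 0.00134 in limma). The renal phosphate carrier gene SLC34A1 fell by 0.36, a call lost with any 1 array left out and after either scaling.

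Reduction genes outside the members held 5 rises and no falls among 8. They included thioredoxin reductase TXNRD1 (1.07, SE 0.13), thioredoxin TXN (0.65, SE 0.14) and glutaredoxin GLRX (0.50, SE 0.10), whereas the glutathione reductase GSR differed by −0.06. TXN did not pass when the 35-week array was left out (0.58, adjusted p = 0.0615 in limma), or with its neighbours' median taken off (0.47). None of the 6 measured genes of methyl supply passed: 1 of them, AHCY, had an unadjusted p under 0.05 (0.25, adjusted p = 0.11 in limma).

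Glutathione and conjugation genes held 6 rises and 1 fall among 16. GCLM, the modifier subunit of the enzyme that starts glutathione synthesis rose by 1.59 (SE 0.17), and the transferase genes GSTK1 (1.09, SE 0.11) and GSTM3 (0.98, SE 0.22) rose as well. GSTM1 was at 5.91, 5.60 and 5.70 at 30, 33.5 and 35 weeks, against 7.68, 6.74 and 6.27 at passages 18, 38 and 42. It fell by 1.16 (SE 0.29), with lower levels at the later RWPE-1 passages too, and without the passage 18 array the difference was −0.77 and still passed (adjusted p = 0.0203 in limma). It did not pass without the passage 38 (−1.24), 33.5-week (−1.09) or 35-week array (−1.14), with a highest adjusted p of 0.0779 in limma. The CAsE-PE levels of GSTM1 lay below 6.25, the upper limit of the dimmest 33.3%, where a level cannot be told from background. Genes of the mu class are similar in sequence, so single members are uncertain.

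Efflux genes held 3 rises and 1 fall among 7. The multidrug resistance proteins ABCC3 (1.21, SE 0.20) and ABCC1 (0.71, SE 0.13), of which the ABCC1 product is known to export arsenic with glutathione, rose together with the porphyrin transporter gene ABCB6 (0.72, SE 0.10). ABCC4, another exporter of the same family, fell (6.61, 6.67 and 6.68 at 30, 33.5 and 35 weeks, against 8.30, 8.40 and 7.85 at passages 18, 38 and 42). That difference was −1.53 (SE 0.14, adjusted p = 0.000179 in limma), or 2.89-fold lower in CAsE-PE. The neighbouring genes had median differences of 0.26 (ABCC3), 0.24 (ABCC1), −0.11 (ABCB6) and −0.17 (ABCC4). With the neighbours' median taken off each array, ABCC3 differed by 0.99, ABCC1 by 0.57, ABCB6 by 0.85 and ABCC4 by −1.24, all still called. The differences of the 8 measured members, shown whether called or not, ran from −0.34 for GSTO2 to 0.56 for SLC2A1. The rises and falls named from the wider list were picked by call and size, so the ranges cannot be compared.

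**Figure D3:**
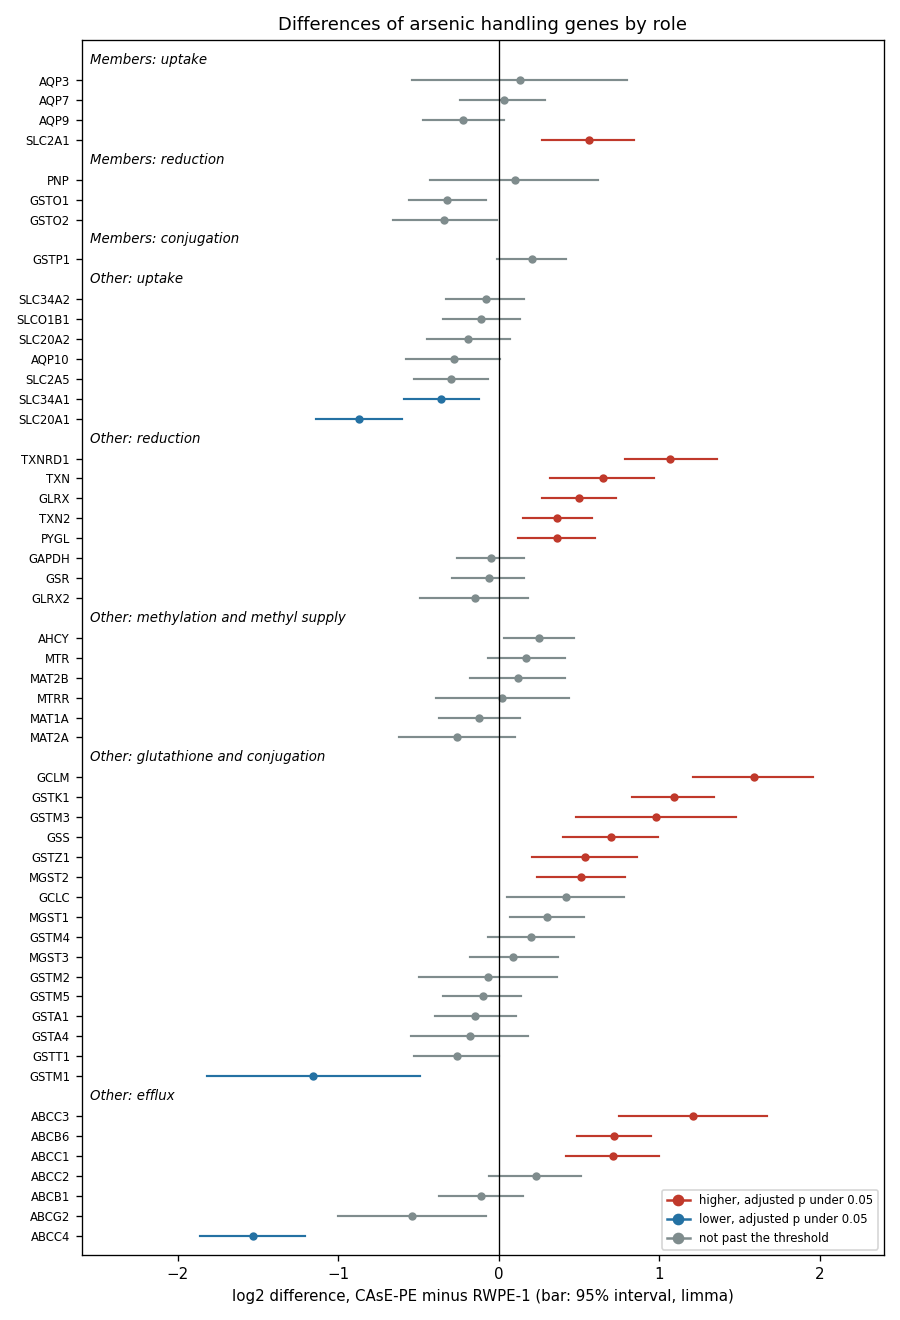
Log2 difference, CAsE-PE minus RWPE-1, with its 95% interval from limma for the 8 measured members and the 44 other arsenic handling genes, by role; red is higher and blue lower at an adjusted p under 0.05. SLC2A1 is the called member, and the other list has 14 genes higher and 4 lower.

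The exposed arrays were not alike for every gene. AQP3 differed from the RWPE-1 mean by 0.90, −0.33 and −0.18 at 30, 33.5 and 35 weeks, and GSTO2 by −0.02, −0.47 and −0.52. Among the other genes ABCC3 was 1.68, 0.93 and 1.02 above the RWPE-1 mean at 30, 33.5 and 35 weeks and GSTM3 1.41, 0.65 and 0.88 above it. GCLM, TXNRD1, GLRX, ABCC1 and, narrowly, ABCB6 were likewise highest at 30 weeks. GSTK1 (0.91, 1.13 and 1.21) and TXN (0.53, 0.62 and 0.79) were instead least raised at 30 weeks. SLC2A1, by contrast, was 0.57, 0.50 and 0.60 above it and GSTP1 0.19, 0.18 and 0.24. With 1 array per exposure time, differences between times have no replicate check.

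**Figure D4:**
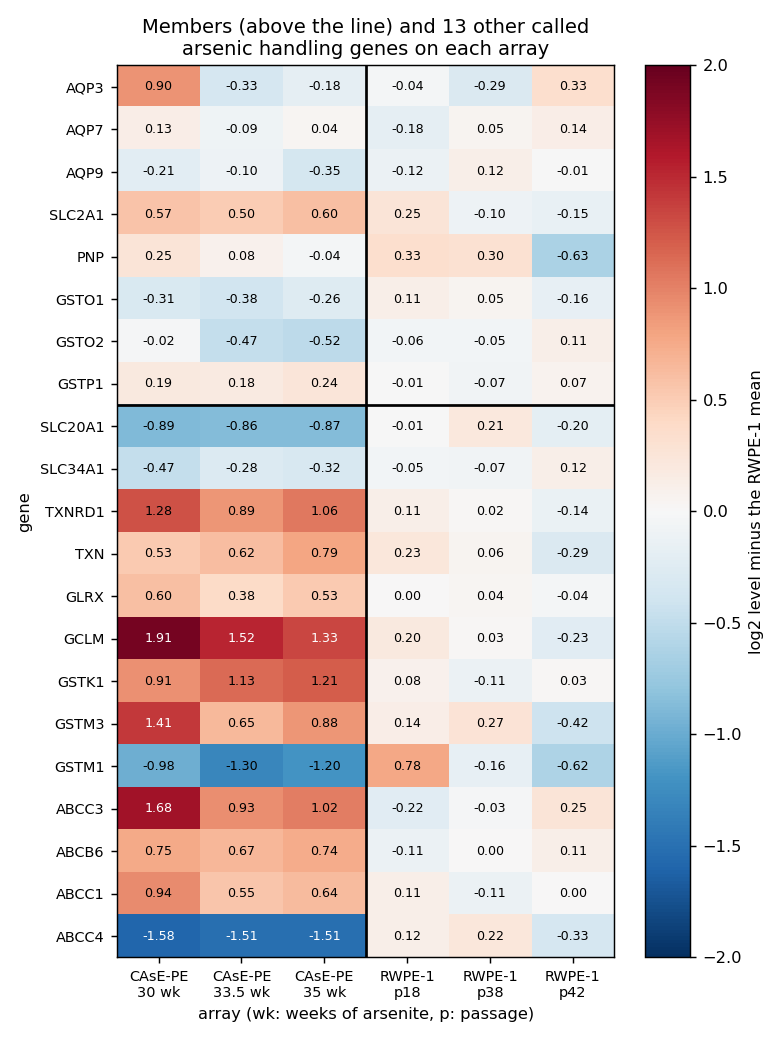
Level of each gene on each array minus its RWPE-1 mean, on the log2 scale, with CAsE-PE arrays left of RWPE-1 arrays; members stand above the line and 13 named genes of the wider list below it. The 30-week array is the highest for AQP3 and, below the line, for TXNRD1, GLRX, GCLM, GSTM3, ABCC3, ABCB6 and ABCC1. For TXN and GSTK1 it is the lowest of the 3 CAsE-PE arrays. SLC2A1 is raised by 0.50 to 0.60 on all 3 CAsE-PE arrays.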

How the data were processed

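Total RNA of 6 samples, 3 CAsE-PE and 3 RWPE-1, was labelled with biotin and hybridised to whole-transcript arrays, per the labels. The authors deposited intensities of 33252 features on each array. These were judged linear from their values, 2.25 to 16617, while how they were background-corrected and normalised, and the slides and scan dates, are not given in the sources used. GEO's platform annotation gave 1 symbol for 19460 features, several for 1754 and none for 12038. The feature with the highest mean stood for a gene. Groups came from the phenotype label. limma 3.58.1 (R 4.3.3; a linear model per gene with eBayes, 4 residual degrees of freedom, two-sided p) was run on log2(value + 1) of 18417 genes with Benjamini-Hochberg adjustment, and the steps were tested on simulated data. Named genes were all members, up to 3 called rises and falls per role of the wider list, and the 2 genes most correlated with a called member. Of the single-symbol features, 19429 matched RefSeq GRCh38.p14 by Entrez identifier, with 0 symbols changed. Alternatives covered scaling, pseudocount, dim genes, features, variance models, array weights, neighbours and each array left out. The members and lists were chosen with earlier results of these data known. Python 3.11.15 and pandas 2.3.3 were used for the tables.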

Additional observations from a re-analysis of the deposited data

How the results depend on the processing

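With array weights 5342 genes were called, and with 1 array left out between 1888 and 3151. Of the 8 members, 2 were called after quantile normalisation, 4 with array weights, 2 with the neighbours' median taken off and 0 to 2 with 1 array left out. Of the 44 other genes, 11 to 18 were called with 1 array left out. Without the dimmest genes 1 member was called as well. Differences changed sign, all without a call, for AQP3 (−0.04 with the neighbours' median taken off, −0.02 without passage 38, −0.26 without 30 weeks, in a range up to 0.36 with 1 array left out), AQP7 (−0.18 with the neighbours' median taken off, −0.06 without passage 18, −0.02 without 30 weeks, up to 0.10) and PNP (−0.18 with array weights, −0.22 without passage 42, up to 0.26). The causes of these sign changes were not tested. The 13 named other genes kept their direction in every alternative. AQP9 has no value once the dimmest 33.3% of genes are left out. The remaining settings (median centring, a pseudocount of 16, the mean of features, an intensity trend, robust variance) left 1 member called. No paired analysis was possible because the labels give passages and exposure times, not shared replicate numbers.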
